A study of Mus musculus with 10 samples.

Results

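The EML family of mouse has 6 genes, Eml1 to Eml6, and all 6 were found by gene name among the 28247 genes of the deposited table. EML stands for echinoderm microtubule-associated protein-like, after a protein first found on the microtubules of sea urchin eggs. RNA was measured in 10 libraries of primary microglia, the resident macrophages of the brain, of wild-type (WT) genotype. The cells of all 10 had received oligomers of amyloid-β (Aβ), the peptide that accumulates in Alzheimer's disease. 5 libraries came from cells given negative control mimics, which are small RNAs with no intended target, and 5 from cells given a mimic of the microRNA miR-378a-3p. No group without Aβ, without a mimic or of another genotype was analysed here, and neither a dose nor a time nor an age is stated in the labels. Separate animals or cultures behind the 5 libraries of a group are not stated either, so every p-value measures the spread between these libraries, which may be technical.

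EML proteins bind microtubules through a fold of WD repeats arranged as paired β-propellers. EML1 to EML4 also carry an N-terminal coiled coil through which they form trimers, whereas EML5 and EML6 are longer proteins that repeat the propeller unit and lack the coiled coil. In microglia, microtubules carry organelles and shape the processes with which the cells survey and engulf. Mutation of Eml1 displaces neurons beneath the cortex in the HeCo mouse, and human EML4 is known as the fusion partner of the kinase ALK in lung cancer.

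The family was picked with results of the same comparison in view, and the change of Eml1 was among the values that chose it. The differences of its 6 members between the mimic groups are therefore given as a description, without a p-value. Levels are the deposited FPKM values, the authors' fragment counts corrected for gene length and library size, which allow genes of different length to be set side by side. Log2 fold changes are miR-378a-3p mimic over control mimic from edgeR's quasi-likelihood fit of the deposited counts to 15916 genes, with their standard errors (SE), and a gene was called when its Benjamini-Hochberg adjusted p was under 0.05. The fit also scales the libraries by factors that the FPKM values do not use, so small changes can differ between fold change and FPKM. The libraries held between 48707985 and 65069571 counts. Low counts peaked at 4, 8 and 12, and 1 read pair is taken here as about 4 counts; counts of 1 and 2 were also frequent, and this unit was not tested.

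Microglial markers were present in every library and were lower with the miR-378a-3p mimic. Their 12 genes summed to 810 to 870 FPKM in the control libraries and to 535 to 561 FPKM in the mimic libraries. All 12 were called lower, against 31.5% of all genes tested. Markers of most other cells were near 0. The 6 astrocyte markers in the table summed to at most 0.632 FPKM and the 3 neural progenitor markers to at most 0.712 FPKM. Both values were those of mimic library 1; the astrocyte markers summed to at most 0.196 FPKM in the other mimic libraries and 0.312 FPKM in the controls, and the progenitor markers to at most 0.0882 and 0.225 FPKM. The 6 fibroblast markers summed to at most 0.0579 FPKM in any library. The 6 neuronal markers summed to 1.12 to 1.56 FPKM in the controls and 1.91 to 2.63 FPKM with the mimic, mostly from Syn1, while Rbfox3 was listed at 0 in every library. The 6 oligodendrocyte lineage markers summed to 0.694 to 0.852 FPKM and 0.228 to 0.400 FPKM, and the 4 endothelial markers, mostly Flt1, to 10.01 to 11.03 FPKM and 3.83 to 4.43 FPKM. The 4 markers of other leukocytes summed to 0.268 to 0.865 FPKM in the controls and 0.370 to 0.876 FPKM with the mimic. The part of these shifts in the results on EML genes was not tested. In such bulk libraries, fewer cells of a type and less RNA per cell cannot be told apart.

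The genes of the family lie on 5 chromosomes, and their coordinates in the deposited table are identical to those of GENCODE M21, an annotation of the GRCm38 build. Eml1 (ENSMUSG00000058070) spans chr12:108370957-108539617 on the plus strand, and Eml5 (ENSMUSG00000051166) spans chr12:98786805-98901484 on the minus strand. Eml2 (ENSMUSG00000040811) lies at chr7:19176421-19206482 and Eml3 (ENSMUSG00000071647) at chr19:8929552-8941582, both on the plus strand. Eml4 (ENSMUSG00000032624) lies at chr17:83350931-83480361 on the plus strand and Eml6 (ENSMUSG00000044072) at chr11:29743048-30026033 on the minus strand. Eml6 is the longest gene with 283.0 kb, and Eml3 the shortest with 12.03 kb. The annotated transcripts with a complete coding sequence encode 783 to 814 codons in Eml1, 649 to 841 in Eml2, 896 or 897 in Eml3 and 876 to 988 in Eml4. Eml5, with 1930 or 1977 codons, and Eml6, with 1958 codons, have the longest coding sequences of the family.

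A microRNA pairs through its seed, bases 2 to 8, with matching letters that lie most often in the 3′ UTR of a messenger RNA. The letters that pair with the seed of miR-378a-3p were searched on the sense strand of the annotated EML transcripts. The forms searched were AGTCCAGA (8mer), AGTCCAG (7mer-m8), GTCCAGA (7mer-A1) and GTCCAG (6mer); the 8mer contains both 7mers, and all contain the 6mer. Among the longest 3′ UTRs of 21024 genes, 3.03% held the 8mer, 10.8% the 7mer-m8, 9.33% the 7mer-A1 and 27.5% the 6mer. 3 of the 6 EML genes held 1 match each in a 3′ UTR, and these are shown because they are the places in the family where the mimic could pair in the usual way. Each is a window of 30 bases of the GRCm38 build read 5′ to 3′ along the transcript, from GENCODE M21, with the match in capitals. The Eml4 window is chr17:83478713-83478742 on the plus strand, the Eml5 window chr12:98789333-98789362 on the minus strand and the Eml6 window chr11:29743895-29743924 on the minus strand.
Eml4 3′ UTR, 7mer-A1: actacccgagatGTCCAGAcgtgcttggta
Eml5 3′ UTR, 7mer-m8: tcaagatgaaaAGTCCAGtagactgctgca
Eml6 3′ UTR, 7mer-m8: cagcaaagaagAGTCCAGctccacagaaag

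The matches start at base 558 of the 3′ UTR in Eml4, base 1000 in Eml5 and base 674 in Eml6. The longest annotated 3′ UTRs of these genes are 2194, 3545 and 1538 bases long, all above the median of 960 bases over all genes. Among genes with a 3′ UTR of 0.8 to 1.2 times the same length, a 7mer of either form was present in 25.1% for Eml4, 36.0% for Eml5 and 18.8% for Eml6. No match of any form was found in the 3′ UTRs of Eml1, Eml2 and Eml3, whose longest are 1347, 271 and 249 bases. Matches within coding sequence were found in 5 of the 6 genes, all but Eml6, and in 4 of them in a 7mer or 8mer form. Across 21769 genes with a complete coding sequence, the longest one held the 6mer in 39.1% and the 8mer in 4.73%. It held the 7mer-m8 in 14.9% and the 7mer-A1 in 14.7%. These shares were not matched for length, and the EML counts take every annotated transcript, so no excess is read from them.

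The coding matches of Eml1 are shown because it had the largest difference of the family and no match in its 3′ UTR. Its transcripts hold 3 different matches, and the 2 of the transcript with the longest 3′ UTR are printed; 1 transcript that joins the junction to another exon, and is not named in the deposited table, has a 7mer-m8 in place of the 8mer. Both printed windows are from GRCm38 and GENCODE M21, on the plus strand, with the match in capitals. The first lies within 1 exon at chr12:108463580-108463609. The second window is joined across a splice junction between bases that lie at chr12:108502401-108506490, and as printed exists in spliced RNA only. In the transcript that joins another exon, the window has the same bases through AGTCCAG. It differs from the next base on, which is the last base of the 8mer.
Eml1 coding, 7mer-A1: ctggagcagcgcGTCCAGAtgcaggaggat
Eml1 coding, 8mer across the junction: agcccgcattcAGTCCAGAagaaggatatg

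The counts by member were as follows. Of the 6 genes, all passed the filter on low counts, 3 were called higher with the mimic, 2 were called lower and 1 was not called. Over all 15916 genes tested, 63.2% were called in either direction, 31.7% higher and 31.5% lower, and because this comparison chose the family nothing is read from its count. By FPKM alone, the groups did not overlap for 3 genes that were higher and 1 that was lower, against 52.2% of all genes in either direction, 31.4% higher and 20.8% lower. The median log2 fold change of the 6 genes was 0.15, and that of all tested genes -0.0021.

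Eml1, the member mutated in the HeCo mouse, was almost silent in the control libraries. Its level there was 0.0534, 0.0867, 0.0514, 0.0708 and 0.0917 FPKM in replicates 1 to 5, from 27 to 43 counts a library, or about 6.75 to 10.8 read pairs if 1 pair is 4 counts. With the miR-378a-3p mimic it was 2.62, 2.41, 2.26, 2.70 and 2.65 FPKM, from 1074 to 1304 counts. All 5 mimic libraries lay above all 5 controls, and the lowest of them was 24.6-fold above the highest control. The mean rose from 0.0708 ± 0.0185 to 2.53 ± 0.187 FPKM (SD, n = 5 each), a ratio of 35.7, and the fitted log2 fold change was 5.05 (SE 0.14). That placed Eml1 at rank 14 among the log2 fold changes of all tested genes. Among tested genes, 3.80% had a lower mean FPKM than Eml1 in the controls and 40.0% with the mimic, so that Eml1 moved from the bottom of the range to below its middle. The counts of the control libraries lay above a floor of 12 counts, which is 3 read pairs in the same unit.

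Eml5, one of the long members without a coiled coil, was the other gene of low level that rose. The control libraries had 1.099, 1.47, 1.28, 1.44 and 1.69 FPKM. The mimic libraries had 2.90, 3.21, 2.66, 3.03 and 3.38 FPKM, all above every control. The mean went from 1.39 ± 0.219 to 3.03 ± 0.276 FPKM (SD, n = 5 each), a ratio of 2.18, and the log2 fold change was 1.03 (SE 0.10). The 3′ UTR of Eml5 holds the 7mer-m8 shown above.

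Eml6, the other long member, was close to Eml5 in the controls but not with the mimic. Its control libraries had 1.45, 1.32, 1.27, 1.36 and 1.104 FPKM. Its mimic libraries had 0.987, 1.29, 1.05, 1.18 and 1.11 FPKM, and the groups overlapped. The lowest control, replicate 5, lay below 3 of the 5 mimic libraries. The mean was 1.30 ± 0.128 FPKM in the controls and 1.12 ± 0.116 FPKM with the mimic (SD, n = 5 each). The log2 fold change of -0.30 (SE 0.09) was called lower by edgeR on the counts but not by limma on log2(FPKM + 1), where the change was -0.12.

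Eml2, which in human cells binds microtubules and in vitro slows their growth, had the highest level of the family in the controls. The control libraries had 18.5, 21.7, 23.7, 21.8 and 19.1 FPKM, and the mimic libraries 14.4, 14.3, 13.8, 14.0 and 14.7 FPKM. Every mimic library lay below every control, and the controls were spread more widely. The mean fell from 21.0 ± 2.14 to 14.2 ± 0.347 FPKM (SD, n = 5 each), a log2 fold change of -0.65 (SE 0.06). Eml2 has no match to the seed in its 3′ UTR.

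Eml3, which in human cells acts at the mitotic spindle, rose by less than Eml1 and Eml5. The control libraries had 10.6, 10.8, 11.2, 10.02 and 10.3 FPKM, and the mimic libraries 13.8, 13.1, 14.4, 12.9 and 13.7 FPKM. The groups did not overlap, with the highest control at 11.2 FPKM and the lowest mimic library at 12.9 FPKM. The mean rose from 10.6 ± 0.470 to 13.6 ± 0.586 FPKM (SD, n = 5 each), and the log2 fold change was 0.27 (SE 0.05).

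Eml4, the gene whose human counterpart is fused with ALK, was the member that edgeR did not call. The control libraries had 13.8, 14.0, 12.5, 13.9 and 14.0 FPKM, and the mimic libraries 13.2, 15.3, 15.3, 15.2 and 15.4 FPKM. Mimic library 1 lay below 4 of the 5 controls, and the other 4 mimic libraries lay above every control. The mean was 13.6 ± 0.640 FPKM in the controls and 14.9 ± 0.944 FPKM with the mimic (SD, n = 5 each), and the log2 fold change was 0.04 (SE 0.05). Scaling by library totals gave 0.11 and limma on log2(FPKM + 1) gave 0.12, and both called it higher. Without control library 3 the log2 fold change was -0.01, and without mimic library 1 it was 0.08.

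**Figure D1:**
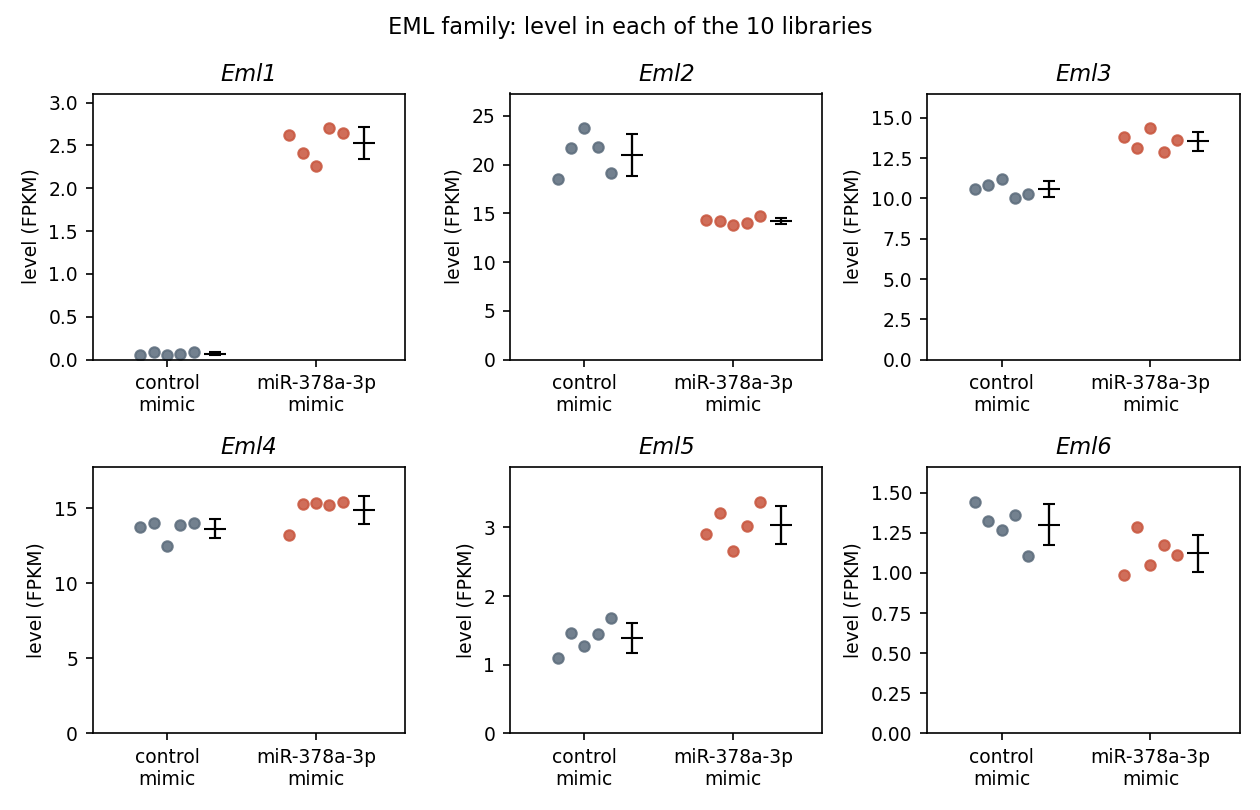
Level of each EML gene in FPKM (vertical axis, linear, from 0, 1 panel per gene) in the 5 control mimic and 5 miR-378a-3p mimic libraries, with points for libraries and bars for the mean and SD. Eml1 goes from 0.0708 to 2.53 FPKM and Eml5 from 1.39 to 3.03 FPKM with no overlap, while the groups of Eml4 and Eml6 overlap.

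The order of the levels within the family differed between the groups. In the controls the order by mean FPKM was Eml2, Eml4, Eml3, Eml5, Eml6 and Eml1, and among neighbours in that order the libraries of Eml5 and Eml6 overlapped while the others did not. With the mimic the order was Eml4, Eml2, Eml3, Eml5, Eml1 and Eml6. Eml4 and Eml2 then overlapped, as did Eml2 and Eml3, and Eml5 and Eml1, so those neighbours cannot be ranked beyond their spread. Eml1 lay above Eml6 in every mimic library and below it in every control library.

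The summed level of the 6 genes was 47.9 ± 1.99 FPKM in the controls and 49.3 ± 1.12 FPKM with the mimic (SD, n = 5 each), with overlapping ranges of 45.5 to 50.1 and 47.8 to 50.9 FPKM. The make-up of that sum differed more than its size. The share of Eml2 went from 43.6 ± 2.73% to 28.8 ± 0.749%, and the share of Eml3 from 22.1 ± 0.969% to 27.5 ± 1.33%. Eml4 held 28.5 ± 2.16% and 30.1 ± 1.46%. Eml1 went from 0.148 ± 0.0396% to 5.12 ± 0.407% of the sum. The long members Eml5 and Eml6 together held 5.63 ± 0.343% in the controls and 8.42 ± 0.622% with the mimic, the rise being that of Eml5, from 2.91 ± 0.478% to 6.14 ± 0.484%, while Eml6 held 2.72 ± 0.302% and 2.28 ± 0.222%. Shares of 1 sum are not independent of each other, and they inherit the choice of the members.

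**Figure D2:**
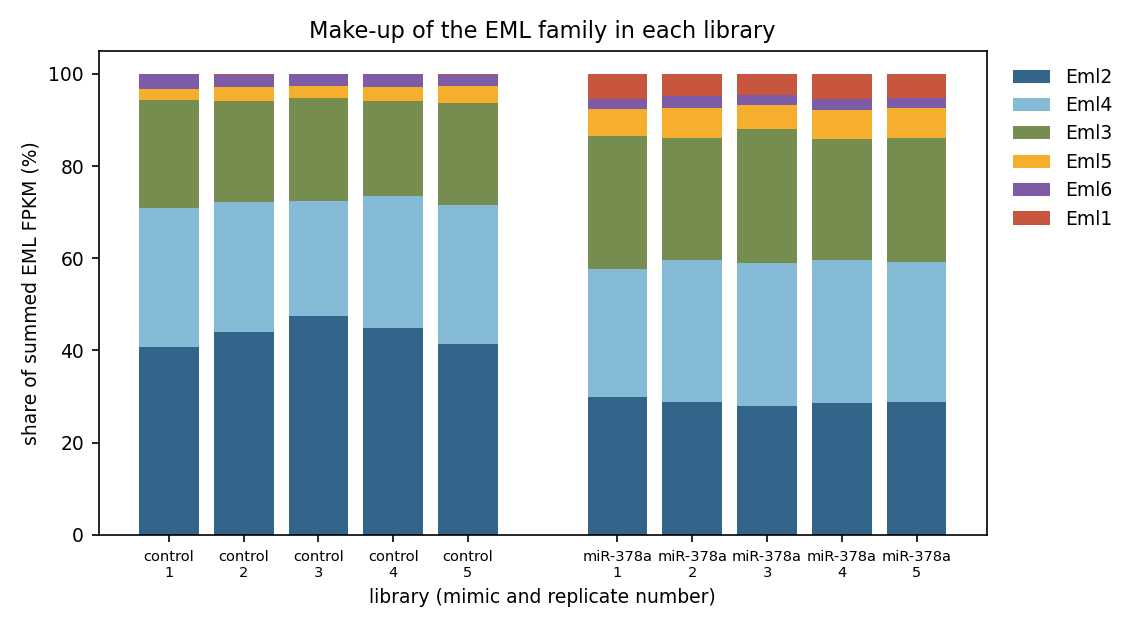
Share of the summed FPKM of the 6 EML genes (vertical axis, percent) held by each gene in each of the 10 libraries, stacked. Eml2 holds a mean of 43.6% in the controls and 28.8% with the miR-378a-3p mimic, and Eml1 0.148% and 5.12%.

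The direction of 5 of the 6 genes was the same under all 19 other settings tried, and that of Eml4 turned in 1 of them. The log2 fold change of Eml1 depended in size on the scale: it was 1.72 on log2(FPKM + 1), where the pseudocount is larger than the control level, and reached 5.13 among the other settings. With each library left out in turn, 3 EML genes were called higher and 2 lower all 10 times. This comparison chose the family, so the repeated calls describe the fit and are not support for a change.

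**Figure D3:**
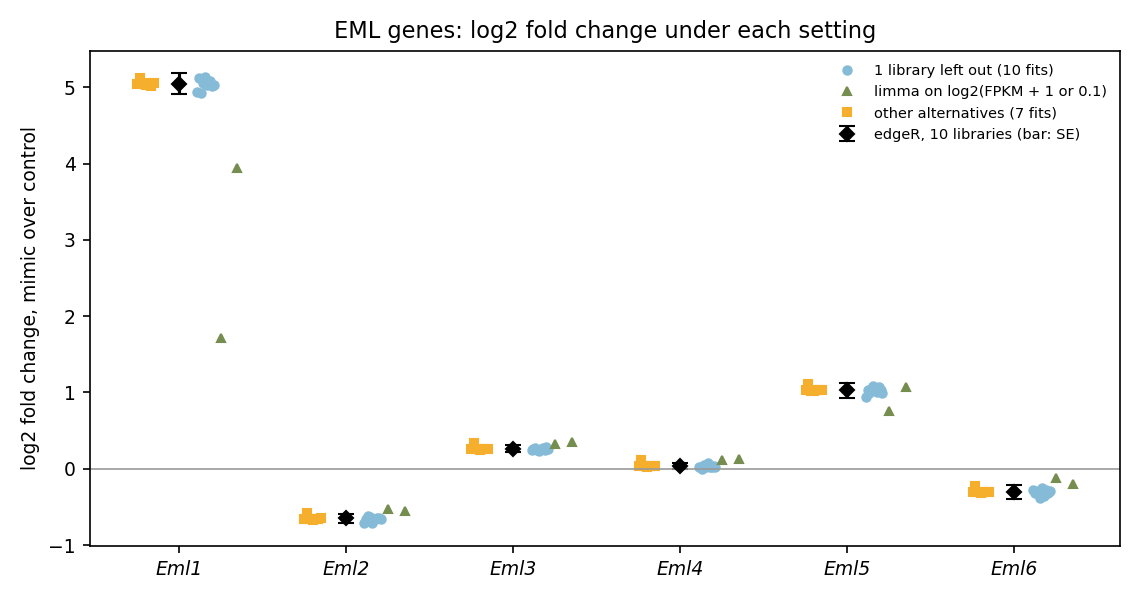
Log2 fold change of each EML gene (miR-378a-3p mimic over control mimic) under the edgeR fit (black diamond with SE), with 1 library left out (circles), with limma on FPKM (triangles) and under 7 other settings (squares), with a line at 0. Eml1 spans 1.72 to 5.13, and Eml4 lies near 0 on both sides.

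The genes beside the EML genes were examined because shared or overlapping transcription units can share reads. The libraries were made strand-marked, per the labels' protocols, but the use of strand when reads were counted is not stated. The nearest tested genes of Eml1 changed in opposite directions. Cyp46a1, the cholesterol 24-hydroxylase, lies 8723 bases to its lower side on the same strand and rose from 0.101 ± 0.0482 to 0.561 ± 0.103 FPKM (log2 fold change 2.34, SE 0.34, edgeR adjusted p = 2.04e-05). Evl, an actin regulator of the Ena/VASP family, lies 15103 bases to its higher side on the same strand and fell from 4.30 ± 0.292 to 0.519 ± 0.0367 FPKM (log2 fold change -3.12, SE 0.09, edgeR adjusted p = 4.63e-13). Neither overlaps Eml1.

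Zc3h14, which encodes a poly(A)-binding protein, overlaps Eml5 on the opposite strand. It was at 23.7 ± 1.09 FPKM in the controls and 26.5 ± 0.568 FPKM with the mimic, and its log2 fold change of 0.08 did not pass (edgeR adjusted p = 0.0533); it did pass with library totals, with limma, and without control library 4 or mimic library 1. Gm48062 also overlaps Eml5 and did not pass (edgeR adjusted p = 0.325). Beside Eml5, Spata7 at 116990 bases and Ttc8 at 19090 bases, both genes of the photoreceptor or primary cilium, fell with log2 fold changes of -0.73 (edgeR adjusted p = 5.98e-07) and -0.50 (edgeR adjusted p = 7.07e-05).

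Fem1al overlaps Eml6 on the same strand and was called lower (log2 fold change -2.58, SE 0.80, edgeR adjusted p = 0.0106), at 0.101 ± 0.0578 FPKM in the controls and 0.0178 ± 0.0279 FPKM with the mimic, with overlapping groups. Without mimic library 3 its log2 fold change was -4.10, and limma on log2(FPKM + 1) gave -0.11. On the other sides of Eml6, Rtn4, which encodes the neurite growth inhibitor Nogo, and Sptbn1, a β-spectrin, did not pass (edgeR adjusted p = 0.549 and 0.727). Gm10353, annotated antisense to Eml3, did not pass (edgeR adjusted p = 0.244), though limma on log2(FPKM + 1) called it higher (adjusted p = 0.0351), and neither did Rom1, which lies 196 bases from Eml3 (edgeR adjusted p = 0.0621), though Rom1 passed with library totals, with limma, and without control library 3 or mimic library 2. Mta2, a subunit of the NuRD complex that starts 293 bases beyond Eml3, was called higher with a log2 fold change of 0.09 (edgeR adjusted p = 0.0154), a call lost without control library 2, 3 or 5. Beside Eml2, Gipr, the receptor of the gut hormone GIP, fell with a log2 fold change of -0.59 (edgeR adjusted p = 9.97e-06) and Gpr4, a proton-sensing receptor, did not pass (edgeR adjusted p = 0.421). Beside Eml4, Cox7a2l, an assembly factor of respiratory supercomplexes, rose with a log2 fold change of 0.12 (edgeR adjusted p = 0.00708) and the pseudogene Rpl21-ps7 did not pass (edgeR adjusted p = 0.385).

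**Figure D4:**
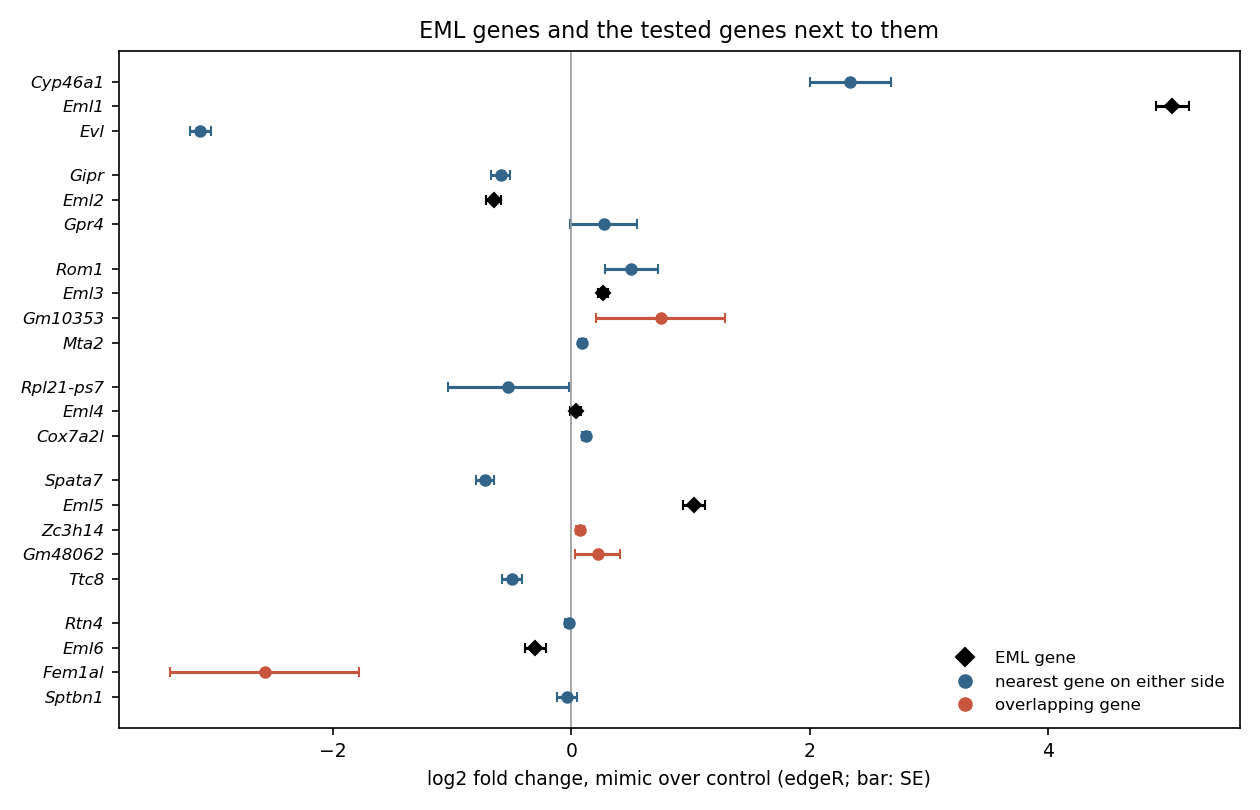
Log2 fold change (miR-378a-3p mimic over control mimic, with SE) of each EML gene beside the genes that overlap it and the nearest tested gene on each side. Eml1 at 5.05 stands between Cyp46a1 at 2.34 and Evl at -3.12.

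The partners of EML proteins moved in both directions. Of 5 partners tested, 1 rose, 2 fell and 2 did not pass, with a median log2 fold change of -0.07. That is 60% called, against 63.2% of all genes tested. Nek6, a mitotic kinase that acts on EML proteins in human cells, fell from 24.5 ± 0.847 to 14.6 ± 0.516 FPKM (log2 fold change -0.84, SE 0.04, edgeR adjusted p = 1.99e-11). Nek9, the kinase upstream of it, fell with a log2 fold change of -0.28 (edgeR adjusted p = 3.29e-06). Nek7, the close relative of Nek6, was called higher with a log2 fold change of 0.15 (edgeR adjusted p = 0.0297), and this call was lost when control library 2 or 3 or mimic library 2 or 4 was left out, and without a filter on low counts. Nudc, which human EML4 recruits to the spindle, was at 113 FPKM in the controls and 123 FPKM with the mimic and did not pass (edgeR adjusted p = 0.686). Rpgrip1l, a ciliary protein that binds mouse EML1, was at 0.973 and 0.984 FPKM and did not pass (edgeR adjusted p = 0.482).

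The wider microtubule system was taken from 9 lists by role, with 95 genes listed, 87 in the table and 78 tested. Of these, 30 rose, 24 fell and 24 did not pass, so that 69.2% were called against 63.2% of all genes tested. The share called higher was 38.5% against 31.7%, and the share called lower 30.8% against 31.5%. The median log2 fold change of the 78 genes was 0.05. Most genes named from a list are those with its smallest p, so they do not stand for the list. With library totals in place of the scaling factors, 40 were called higher and 19 lower, and with limma on log2(FPKM + 1) 37 and 17. Over all tested genes, library totals called 5937 higher and 4225 lower, and limma 6118 and 4146, against 5050 and 5006 in the main fit. The balance between the directions thus depends on the scaling over all genes and not only in these lists.

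The tubulins are the building blocks of the polymer. Of the α-tubulins, 3 of 4 tested rose (75%, against 31.7% of all genes) and 1 did not pass, with a median log2 fold change of 0.44. Tuba1c went from 171 ± 8.28 to 322 FPKM (log2 fold change 0.82, edgeR adjusted p = 2.59e-11), and Tuba1b from 605 ± 15.1 to 767 FPKM (log2 fold change 0.25, edgeR adjusted p = 4.21e-07). Tuba1a had a log2 fold change of 0.10 (edgeR adjusted p = 0.00927), a call lost without control library 2 or 5. Of the 8 β-tubulins, 4 rose, 2 fell and 2 did not pass, with a median of 0.82; 50% were called higher and 25% lower. The number called lower was 1 with library totals, with limma, with a filter on mean FPKM and without mimic library 4, and 3 without control library 5. The 2 called lower were Tubb1, known from platelets, at 0.758 ± 0.285 and 0.165 ± 0.0617 FPKM (log2 fold change -2.23, edgeR adjusted p = 2.94e-05), and Tubb5. Tubb5 had 393 FPKM in the controls and 395 FPKM with the mimic (log2 fold change -0.08, edgeR adjusted p = 0.0172). Its mean FPKM thus did not fall, and its groups overlapped. Tubb4b had the largest rise among those named, from 118 ± 3.98 to 287 FPKM (log2 fold change 1.196, edgeR adjusted p = 3.69e-13). Tubb2a and Tubb6 rose with log2 fold changes of 0.99 (edgeR adjusted p = 6.53e-10) and 0.71 (edgeR adjusted p = 1.02e-10). Tubulin genes are near-identical over long stretches, so the division of reads among Tuba1a, Tuba1b and Tuba1c, and among the β-tubulins, is uncertain.

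Genes that start microtubules and hold their minus ends were next. Of the 13 nucleation genes, 7 rose, 1 fell and 5 did not pass, with a median log2 fold change of 0.23. The shares are 53.8% higher and 7.69% lower, against 31.7% and 31.5% of all genes tested. The number called lower was 0 with library totals, with limma, without a filter on low counts, and without control library 4 or 5 or mimic library 1, 2 or 4. Tubg1, the γ-tubulin, rose with a log2 fold change of 0.54 (edgeR adjusted p = 2.97e-07), and Tubgcp4 and Tubgcp6, subunits of the γ-tubulin ring complex, rose with 0.74 (edgeR adjusted p = 5.37e-11) and 0.77 (edgeR adjusted p = 1.49e-09). Of the minus-end proteins, both tested rose. These were Camsap1 and Camsap2, which hold free minus ends, with log2 fold changes of 0.26 (edgeR adjusted p = 9.44e-05) and 0.76 (edgeR adjusted p = 6.63e-09).

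Of 12 tested proteins of the growing plus end, 8 fell, 2 rose and 2 did not pass, with a median log2 fold change of -0.26. The share called lower was 66.7%, against 31.5% of all genes tested, and no test of the list was run. Slain2, which promotes growth with the polymerase Ckap5, fell from 18.4 ± 0.767 to 9.70 FPKM (log2 fold change -1.01, edgeR adjusted p = 7.31e-12). Clip2 and Mapre2, the latter an end-binding protein, fell with log2 fold changes of -0.80 (edgeR adjusted p = 1.51e-08) and -0.43 (edgeR adjusted p = 1.67e-08). Of the 9 tested proteins that bind along the lattice, as EML proteins do, 4 fell (44.4%), 2 rose and 3 did not pass, with a median of -0.33. Map4 fell with a log2 fold change of -0.36 (edgeR adjusted p = 5.21e-08), Map6 with -0.55 (edgeR adjusted p = 3.57e-06) and the doublecortin-like kinase Dclk2 with -0.42 (edgeR adjusted p = 9.22e-09).

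Of 11 destabilising and severing proteins tested, 5 rose, 3 fell and 3 did not pass, with a median log2 fold change of -0.07. The shares are 45.5% higher and 27.3% lower, against 31.7% and 31.5% of all genes tested, and with a filter on mean FPKM, which tests fewer genes, 5 were called higher and 1 lower. The mitotic depolymerase Kif2c rose with a log2 fold change of 0.54 (edgeR adjusted p = 1.27e-07), the severing enzyme Spast with 0.37 (edgeR adjusted p = 6.21e-06) and Fignl1 with 0.47 (edgeR adjusted p = 2.1e-05). Of 14 tubulin modifying enzymes, 4 rose, 4 fell and 6 did not pass, with a median of 0.05, or 28.6% in each direction. The balance depends on the settings, with 7 higher and 2 lower with library totals, 6 and 2 with limma, and 3 and 2 without a filter on low counts. The number called lower was also 2 without control library 3 or mimic library 2, 3 or 4. Over all genes tested in each setting, 5937 were called higher and 4225 lower with library totals, and 6118 and 4146 with limma on log2(FPKM + 1). Without a filter on low counts these numbers were 4856 and 4941, against 5050 and 5006 in the main fit. Hdac6, which removes acetyl groups from α-tubulin, rose with a log2 fold change of 0.36 (edgeR adjusted p = 0.000247), and the glutamylase Ttll4 rose with 0.54 (edgeR adjusted p = 1.45e-07). Agtpbp1, which trims glutamates from tubulin tails, fell with -0.94 (edgeR adjusted p = 2.89e-10).

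**Figure D5:**
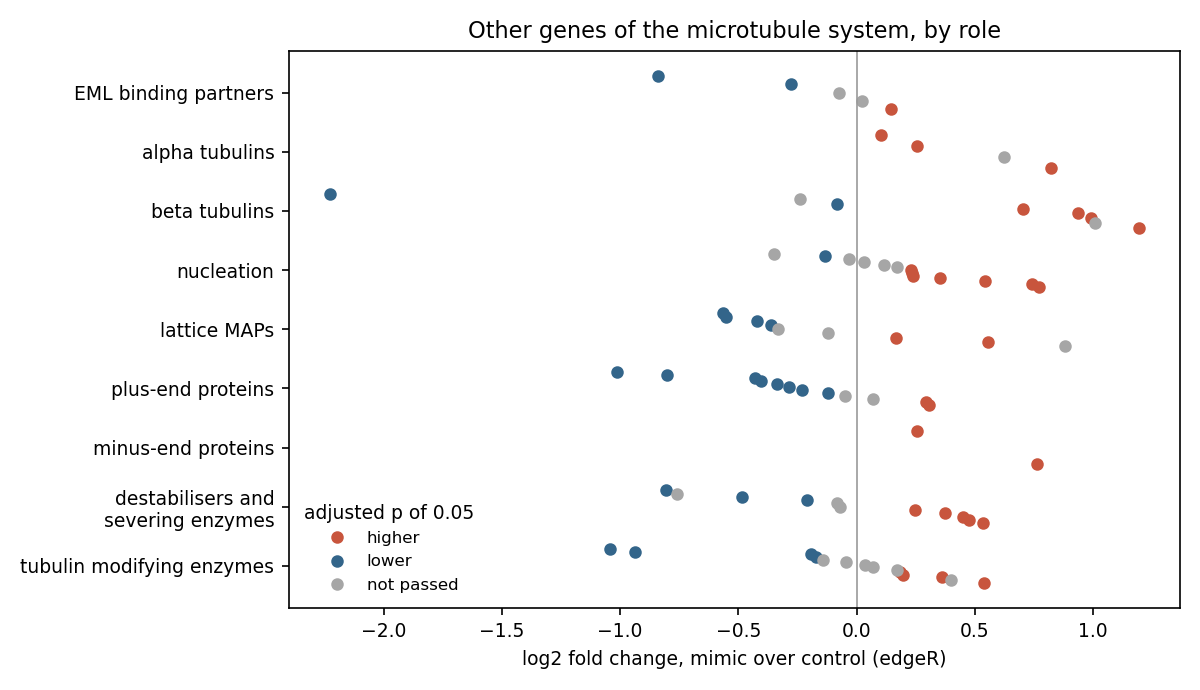
Log2 fold change (miR-378a-3p mimic over control mimic) of every tested gene of the 9 microtubule lists, 1 row of points per list, red for genes called higher, blue for lower and grey for not passed; the small vertical offsets carry no meaning. The median is 0.82 for the β-tubulins, 0.23 for nucleation genes and -0.26 for plus-end proteins.

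The genes whose level followed Eml1 most closely across the 10 libraries were sought among the 11569 genes whose mean FPKM reached 1. By Pearson correlation of log2(FPKM + 1), these were Esd (r = 0.999), Tnfrsf23 (r = 0.999), Srsf4 (r = 0.999), Srxn1 (r = 0.998) and Sipa1l1 (r = 0.998). The libraries fall into the 2 mimic groups, which differ in all of these genes, so the values describe the difference between groups and not covariation within them. Esd, an esterase of formaldehyde detoxification, went from 57.6 ± 0.406 to 160.3 ± 7.18 FPKM. Srxn1, the sulfiredoxin that restores oxidised peroxiredoxins, went from 15.0 ± 0.222 to 53.2 ± 3.81 FPKM. Tnfrsf23, a decoy receptor, went from 9.96 ± 0.159 to 20.7 ± 0.722 FPKM, the splicing factor gene Srsf4 from 8.73 ± 0.0546 to 15.5 ± 0.238 FPKM, and the Rap regulator gene Sipa1l1 from 13.7 ± 0.121 to 19.5 ± 0.370 FPKM.

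Genes grouped by the strongest seed match in their longest 3′ UTR give the setting for the 3 EML genes with a match. Of 1099 tested genes with a 7mer-m8, as Eml5 and Eml6 have, 40.4% were called higher and 33.1% lower, with a median log2 fold change of 0.05. Of 712 genes with a 7mer-A1, as Eml4 has, 38.6% were called higher and 35.3% lower, with a median of 0.03. Of 8348 genes with no match, as Eml1, Eml2 and Eml3, 35.7% were called higher and 34.8% lower, with a median of 0.01. Within the EML family, the genes with a match comprised 1 called higher, 1 called lower and 1 not called, and those without comprised 2 called higher and 1 called lower.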

How the data were processed

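Per the labels' protocols, poly(A) RNA of 10 samples was made into strand-marked libraries with dUTP and sequenced in pairs. Each gene has 2 deposited values per library in a single table, the authors' estimated count and their FPKM, per the file headers. The submitters' processing notes name cutadapt 1.9, HISAT2 2.2.1, StringTie 2.1.6, DESeq2, edgeR and GRCm39, without roles or order; gene coordinates in the table were nevertheless those of GRCm38, identical to GENCODE M21 for 24730 of 28163 matched genes (87.8%) and for all 6 EML genes. The deposited counts were whole numbers, used unrounded. All 20 value columns matched a library by name. No pair of libraries held identical values.

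Groups came from the treatment labels and numbers from the titles. After filterByExpr and TMM scaling, genes were fitted with edgeR 4.0.16 (R 4.3.3; glmQLFit, glmQLFTest, no covariate), with Benjamini-Hochberg adjustment over 15916 genes; 10056 were called, 5050 higher and 5006 lower. SE is the log2 fold change divided by the square root of F. Alternatives were DESeq2 size factors, library totals, other filters, DESeq2 1.42.0, limma 3.58.1 on log2(FPKM + 1) or with 0.1, counts divided by 4, a fit with a replicate block, and fits without each library in turn. On simulated counts, 62% of 50 genes changed 1.5-fold and 72.9% of 48 changed 2-fold were recovered among 15625 genes, with 13 false calls. Few genes were changed there, whereas 63.2% were called in the data, so these rates may not carry over.

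A floor of 3 read pairs is taken as 12 counts, or 0.184 to 0.246 CPM, and covers counting error only. The unit of 4 counts a pair is an assumption. On average 933.5 genes a library had a count of 4 and 406.2 a count of 8, against 485.6 at 3 and 305.8 at 5, but 807.0 had a count of 1 and 656.3 a count of 2, which that unit does not give. The genes named are the 6 EML genes; up to 3 genes with the smallest p from each microtubule list; for each EML gene the tested genes that overlap it and the nearest on each side; and the 5 genes of mean FPKM of at least 1 most correlated with Eml1. Nudc, Rpgrip1l, Tubb1 and Tubb5 were added after their values were seen. The seed was read from miR-378c, which shares it, in the RefSeq table of mature microRNAs. Members and lists were chosen with earlier results of these data known.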

Additional observations from a re-analysis of the deposited data

Results flagged for a closer look

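Among 53 named genes, 106 groups of 5 libraries were checked for 1 library far from the other 4, by its gap to the nearest divided by the range of the group; 6 exceeded the critical value of 0.71, and chance gives about 1 in 20 groups. Both groups of Eml4 were among them. Control library 3 had 12.5 FPKM of Eml4 against 13.8 to 14.0 in the others, and mimic library 1 had 13.2 FPKM against 15.2 to 15.4. The log2 fold change of Eml4 without each of these is given above.

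Mimic library 3 had 5.22 FPKM of the deacetylase Hdac6 against 6.06 to 6.19 in the others, which still lay above every control. Control library 4 had 0 FPKM of Gm10353, the antisense gene at Eml3, against 0.260 to 0.337. Mimic library 3 had 0.0665 FPKM of Fem1al, within Eml6, against 0 to 0.0128. Control library 3 had 32.5 FPKM of Rtn4, beside Eml6, against 35.5 to 36.6.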

How the results depend on the processing

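The numbers of EML genes called, 3 higher and 2 lower, were the same with DESeq2 size factors, DESeq2, other filters and counts divided by 4. They were also the same with each of the 10 libraries left out. As this comparison chose the family, that sameness is a description and not support. EML genes called lower numbered 1 with limma on log2(FPKM + 1) and 1 with a pseudocount of 0.1, where Eml6 lost its call at -0.12 and -0.20; the cause was not tested. Eml4 was called higher with library totals (0.11) and both limma settings (0.12 and 0.12), and with 1 library left out ranged from -0.0055 (without control library 3) to 0.079 (without mimic library 1). Rtn4 turned from -0.02 to 0.053 with library totals and 0.065 and 0.067 with limma, and Sptbn1 from -0.04 to 0.042, 0.022 and 0.044. With 1 library left out Sptbn1 ranged from -0.105 (without mimic library 1) to 0.0055 (without mimic library 3). Library totals moved the median of all genes to 0.08, under the 0.1 at which changes would be given relative to it. Leaving out 1 library gave 9711 to 9974 genes called, and 28 to 30 microtubule genes called higher and 20 to 25 lower. Libraries with the same number did not deviate together (r from -0.02 to 0.10, none of 5 pairs over 0.1, none best with its own number). With the replicate number as a block, 9768 genes were called, 4879 higher and 4889 lower, with the same 3 and 2 EML genes and 30 and 23 microtubule genes. Eml1 in the controls rests on 27 to 43 counts, so its ratio is known less well than its direction.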
